A study of Homo sapiens with 8 samples.

Results

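The 46 genes described here encode extracellular matrix proteins, the enzymes that crosslink and degrade them, the integrins and other receptors that bind them, and proteins abundant in mesenchymal cells. They were chosen by symbol, and each symbol matched 1 of the 61906 rows of the expression table. RNAseq was performed on U251 cells, an established human glioblastoma line of genotype WT per the labels, grown in DMEM with serum and treated for 24 h with vehicle (DMSO) or with 100 nM LLY-283, a small-molecule inhibitor of the arginine methyltransferase PRMT5. Each group comprised 4 libraries labelled as biological replicates. The labels do not say whether these were separate cultures, so the p-values measure the spread between these libraries. As a model, this is 1 cell line in culture at 1 dose and 1 time, without the other cells of a tumor. The values are TPM, a gene's share of all transcripts in a library after correction for transcript length, so that levels can be compared between genes. TPM keeps no record of read number, and the depth behind each value is therefore unknown.

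The extracellular matrix is a network of collagens, laminins and glycoproteins that cells secrete and then bind through integrins, receptors made of an alpha and a beta chain, and through syndecans and CD44. Proteases such as urokinase and the matrix metalloproteinases remodel it, and TGF-beta is a classical inducer of its genes. In glioblastoma, a high expression of such genes is a known mark of the mesenchymal subtype.

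To check the cell type, marker genes were examined in all 8 libraries. The glial genes GFAP (662.8 to 839.9 TPM), FABP7, NES and SOX2 were expressed, whereas AQP4, ALDH1L1 and OLIG2 stayed under 0.5 TPM. Of the 7 glial markers tested, GFAP (log2 fold change -0.25), FABP7 (-0.21), NES (-0.17) and SOX2 (-0.27) were lower after LLY-283 at an adjusted p under 0.05. None was called higher, and of all genes tested 17.6% were called lower. Not called were S100B (-0.43), SOX9 (-0.08) and, in the other direction, SLC1A3 (0.25, limma adjusted p = 0.105). The summed level of the 10 glial markers was 1806.3 to 1879.4 TPM with vehicle and 1567.2 to 1620.3 TPM with LLY-283. GFAP, NES and FABP7 had the highest means in this sum. The 6 endothelial markers summed to 2.06 to 2.95 TPM and the 6 leukocyte markers to 1.43 to 3.22 TPM over both groups, and PECAM1, CDH5, PTPRC and CD3E were each under 0.5 TPM throughout. The highest of these were KDR (1.85 to 2.55 TPM) and CD68 (0.95 to 2.93 TPM). The 6 epithelial markers summed to 9.70 to 13.3 TPM. CLDN4 had the highest mean in this sum (9.80 to 12.8 TPM with vehicle, 8.55 to 10.1 TPM with LLY-283), and EPCAM and CDH1 were under 0.5 TPM. The 8 fibroblast and mural markers summed to 340.0 to 374.7 TPM with vehicle and 340.9 to 365.2 TPM with LLY-283. THY1 (vehicle mean 254.8 TPM) and PDGFRA (90.5 TPM) were expressed and had the highest means in this sum, and neither was called. LUM, DCN and DPT were under 0.5 TPM. The protein-coding entry of RGS5, a mural marker, was lower after LLY-283 (1.80 to 4.46 TPM with vehicle, 1.06 to 1.51 TPM with LLY-283). A second entry of that name, annotated as a long noncoding RNA and under 6 TPM, was lower too. In bulk RNA, fewer cells of a type and less RNA per cell cannot be told apart. LLY-283 replicate 4 stood apart in its makeup: genes of the mitochondrial genome held 7.19% of its TPM, against 10.2% to 10.995% in the other 7 libraries. Whether the lower glial markers or this share have a part in the values below was not tested.

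The matrix and mesenchymal genes were strongly expressed in vehicle-treated U251 cells (plot of levels by library). Of the 46 genes, 7 had a vehicle mean of at least 1000 TPM and 26 one of at least 100 TPM. ANXA2 was the most abundant (5251 ± 65.1 TPM, SD, n = 4), followed by S100A6 (4443 ± 144 TPM) and VIM (4301 ± 34.8 TPM), and the spread of S100A6 and VIM between replicates overlapped. Together these 3 genes held 53.3% of the summed TPM of the list. Next in order came SPARC (2241 ± 113 TPM), LGALS1 (1771 ± 47.6 TPM), CD44 (1576 ± 45.2 TPM) and TGFBI (1417 ± 10.4 TPM), whose vehicle ranges did not overlap. At the other end were 7 genes under 10 TPM. COL3A1, which encodes type III collagen, lay between 0 and 0.11 TPM over the 8 libraries. CHI3L1, a secreted glycoprotein often used as a mesenchymal glioblastoma marker, lay between 0.02 and 0.23 TPM, and TIMP3, a matrix-bound inhibitor of metalloproteinases, between 0.52 and 0.83 TPM. These 3 genes did not reach the mean of 1 TPM required for the test, in either group, and the other 43 were tested.

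**Figure D1:**
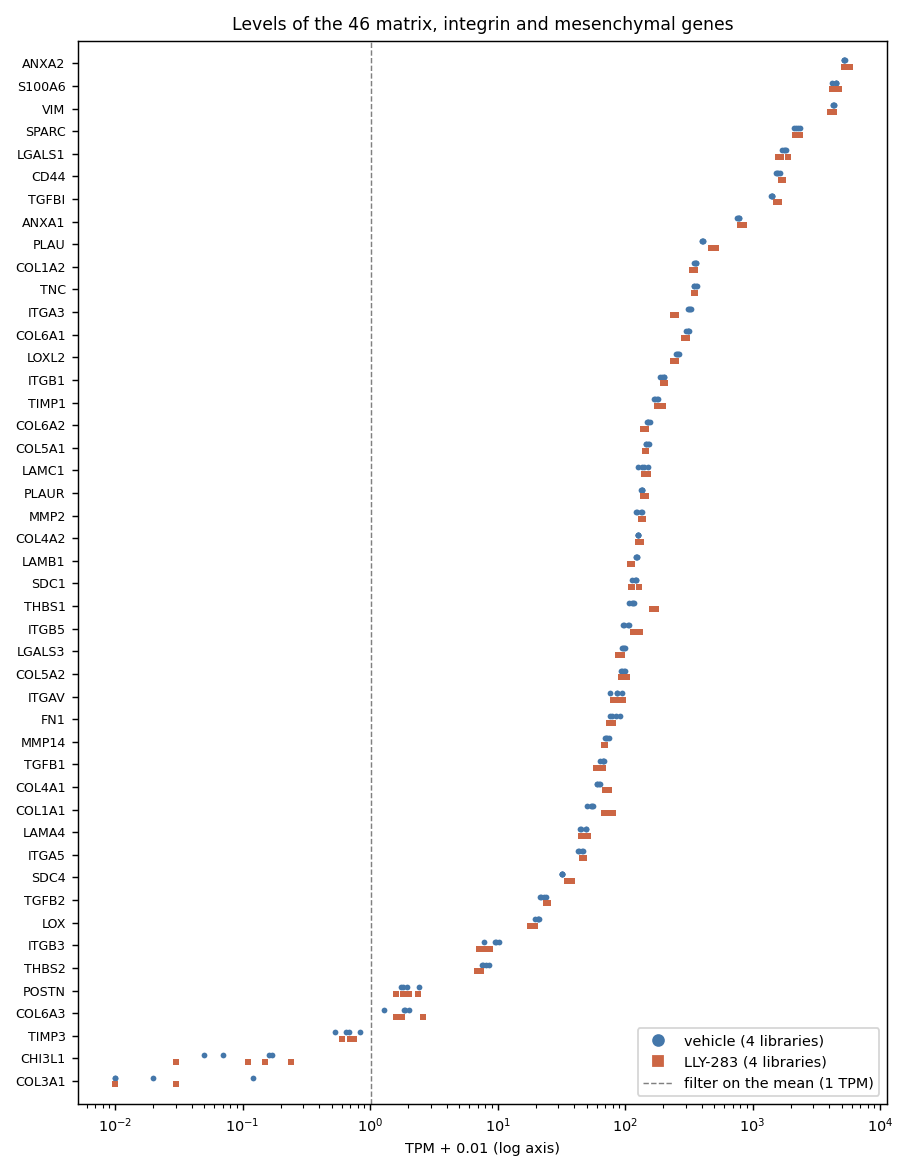
TPM of each of the 46 genes (vertical axis, ordered by vehicle mean) in the 4 vehicle libraries (circles) and the 4 LLY-283 libraries (squares); the horizontal axis is TPM + 0.01 on a log scale, and the dashed line marks the filter at 1 TPM. The list runs from COL3A1, at or under 0.11 TPM, to ANXA2, the highest in every library, and for most genes the symbols of both groups lie close together.

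Replicates agreed closely. Over the 41 genes averaging 5 TPM or more, the coefficient of variation had a median of 2.87% in the vehicle group (range 0.438% to 11.3%) and of 3.28% in the LLY-283 group (range 0.421% to 8.99%), the highest in both groups being that of ITGB3.

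After LLY-283, 9 of the 43 genes tested rose and 4 fell at an adjusted p under 0.05 (limma on log2(TPM + 0.1), adjusted over all 14478 genes tested). The genes that rose were THBS1, COL1A1, PLAU, ITGB5, COL4A1, SDC4, TGFBI, CD44 and ANXA1, and those that fell were ITGA3, LAMB1, COL6A2 and LGALS3. The changes were small: the log2 fold changes of the 43 genes ran from -0.38 to 0.56, and none of the 13 called genes changed by more than 1.5-fold, a size that 3.87% of all genes tested passed together with the adjusted p (0.394% higher and 3.48% lower). Of all genes tested, 26.2% were called, 8.61% as higher and 17.6% as lower, against 30.2% of the list called, 20.9% as higher and 9.30% as lower. These shares stand side by side as a description, without a test. The role groups below hold 2 to 9 tested genes each, too few to read their counts of calls against these shares. The median log2 fold change was 0.03 over the list and -0.05 over all genes tested. The split of the calls moved with the scaling: under median-of-ratios scaling 14 genes rose and 2 fell, and under quantile normalization 8 rose and 7 fell. Over all genes tested, the counts under these scalings were 1927 higher and 1866 lower, and 1871 higher and 1820 lower. In all 20 alternative analyses 9 genes kept their call, the increases of THBS1, COL1A1, PLAU, ITGB5, COL4A1, SDC4 and TGFBI and the decreases of ITGA3 and LAMB1.

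**Figure D2:**
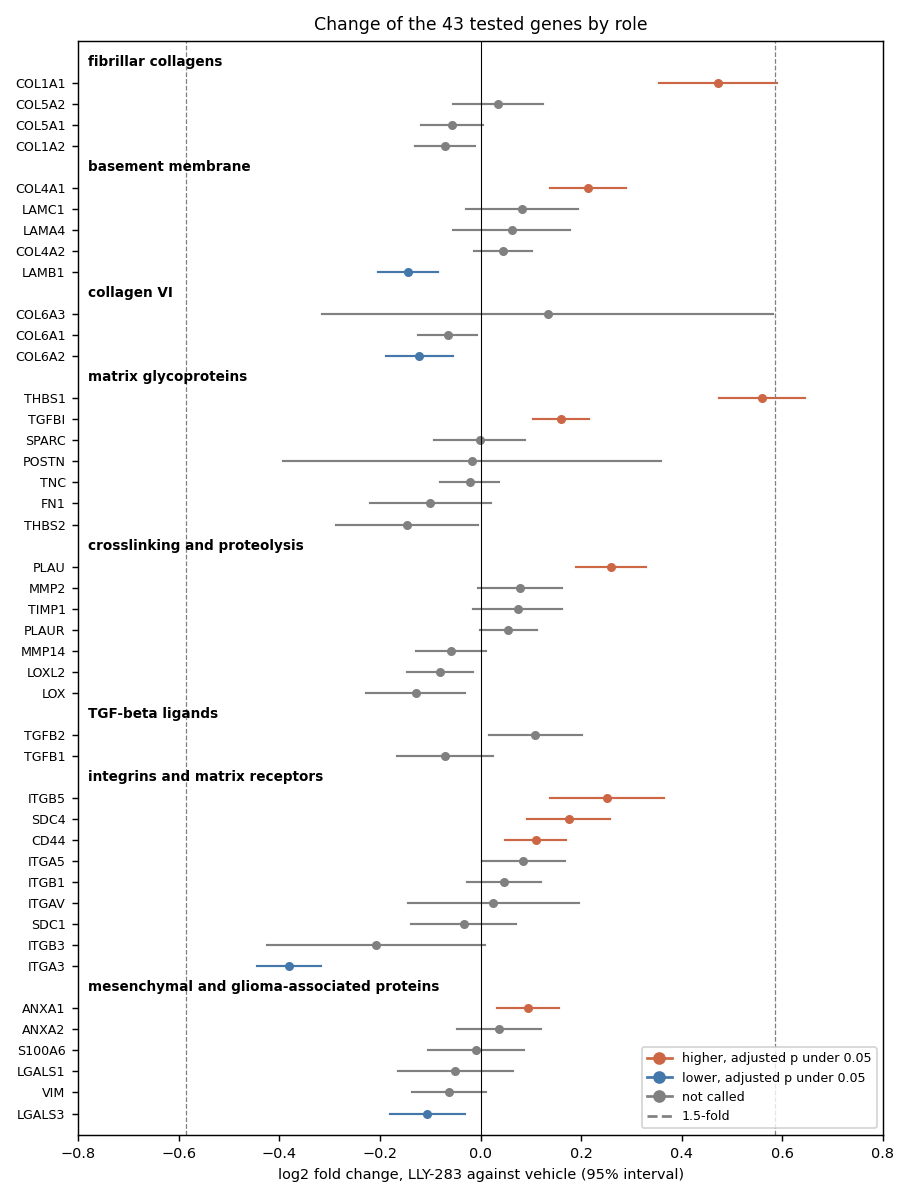
Log2 fold change of the 43 tested genes (horizontal axis, LLY-283 against vehicle, on the log2(TPM + 0.1) scale) with 95% intervals from limma, grouped by role; colors mark genes called at an adjusted p under 0.05 and dashed lines mark 1.5-fold. THBS1 (0.56) and COL1A1 (0.47) lie farthest to the right, ITGA3 (-0.38) farthest to the left, and most other genes lie within 0.2 of 0.

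Among the fibrillar collagens, which form the tensile fibers of the matrix, COL1A1 rose and the other 3 tested genes were not called. COL1A1 (ENSG00000108821, chr17:50184101-50201632, minus strand; positions are those of GENCODE 44 on GRCh38), which encodes the alpha 1 chain of type I collagen, was expressed at 54.5, 50.1, 55.6 and 55.4 TPM in the vehicle libraries and at 76.6, 73.8, 80.2 and 69.0 TPM in the LLY-283 libraries. Every LLY-283 library was above every vehicle library. The log2 fold change was 0.47 ± 0.0523 (SE; limma adjusted p = 0.000356). COL1A2 (ENSG00000164692, chr7:94394895-94431227, plus strand), which encodes the partner chain in the same trimer, was expressed at 353, 349, 360.1 and 363 TPM with vehicle and at 335, 336, 334 and 352 TPM with LLY-283. LLY-283 replicates 1 to 3 were below the vehicle range and that of replicate 4 was inside it. Its log2 fold change of -0.07 was not called with all libraries (adjusted p = 0.0772, limma) and was called lower without LLY-283 replicate 4 (log2 fold change -0.09, adjusted p = 0.0101) and, with all libraries, under quantile normalization (-0.07, adjusted p = 0.0377). COL5A1, a chain of the type V collagen that regulates fiber diameter, had 150.1 ± 4.23 and 144 ± 1.03 TPM (SD, n = 4 each), and COL5A2, its partner, 96.7 ± 3.81 and 99.03 ± 4.07 TPM. Their log2 fold changes were -0.06 (95% interval -0.12 to 0.0053) and 0.03 (95% interval -0.06 to 0.12), and neither was called.

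The 5 basement membrane genes included 1 increase and 1 decrease. COL4A1 (ENSG00000187498, chr13:110148963-110307157, minus strand), a chain of the network-forming type IV collagen, was expressed at 62.7, 59.9, 64.0 and 60.7 TPM in the vehicle libraries and at 71.6, 70.7, 74.4 and 70.2 TPM in the LLY-283 libraries, without overlap (log2 fold change 0.21 ± 0.0333, SE; limma adjusted p = 0.00180). COL4A2 (ENSG00000134871, chr13:110305812-110513209, plus strand), the partner chain, had 127 ± 0.554 TPM with vehicle and 131 ± 2.84 TPM with LLY-283 (SD, n = 4 each). Its log2 fold change of 0.04 (95% interval -0.01 to 0.10, adjusted p = 0.226, limma) was not called, but was under median-of-ratios scaling (0.09, adjusted p = 0.0497). Both genes lie head to head on chromosome 13, the annotated gene bodies overlap on opposite strands, and the RefSeq start sites used here are 127 bases apart. The promoter windows below, from 250 bases before to 50 bases after the start (RefSeq, GRCh38.p14), are shown because the windows of both genes share DNA: 226 bases, chr13:110307108-110307333, are common to both windows and are read from opposite strands. Capitals mark GGGCGG, the SP1 motif, or its reverse complement.
COL4A1 (minus strand, chr13:110307108-110307407): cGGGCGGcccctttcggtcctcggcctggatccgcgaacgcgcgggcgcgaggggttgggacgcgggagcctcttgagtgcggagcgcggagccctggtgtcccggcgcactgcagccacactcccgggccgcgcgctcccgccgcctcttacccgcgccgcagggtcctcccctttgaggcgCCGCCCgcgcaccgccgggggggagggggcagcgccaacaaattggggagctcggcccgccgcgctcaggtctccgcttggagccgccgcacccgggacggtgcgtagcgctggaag
COL4A2 (plus strand, chr13:110307034-110307333): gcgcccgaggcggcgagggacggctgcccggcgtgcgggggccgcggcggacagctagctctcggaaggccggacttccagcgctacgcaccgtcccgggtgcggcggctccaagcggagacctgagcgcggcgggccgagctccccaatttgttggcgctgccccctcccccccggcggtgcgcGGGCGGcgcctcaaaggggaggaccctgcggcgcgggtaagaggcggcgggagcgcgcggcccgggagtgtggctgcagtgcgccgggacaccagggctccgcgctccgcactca
The window of COL4A1 holds 2 matches and that of COL4A2 1, which lies in the common stretch and is the same site as the second of COL4A1. Whether the counting used strand is not stated, so reads from the overlapping ends of both genes may not have been told apart.

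Laminins are trimers of an alpha, a beta and a gamma chain that anchor cells to the basement membrane. LAMB1 (ENSG00000091136, chr7:107923799-108003213, minus strand), the beta 1 chain, was expressed at 122, 125, 122 and 124 TPM with vehicle and at 110.1, 109, 114 and 113 TPM with LLY-283. The groups did not overlap, and its log2 fold change was -0.14 ± 0.0269 (SE; limma adjusted p = 0.00448). LAMB1 overlaps DLD, expressed at a mean of 86.0 TPM, on the opposite strand. LAMC1 (ENSG00000135862, chr1:183023420-183145592, plus strand), the gamma 1 chain and the most abundant uncalled gene of this group, had 135, 127, 151 and 139.8 TPM with vehicle and 141, 147, 151 and 146 TPM with LLY-283. Its vehicle libraries spread over a wider range than its LLY-283 libraries, the groups overlapped, and its log2 fold change of 0.08 was not called (adjusted p = 0.250, limma). LAMA4, an alpha chain of vascular and mesenchymal basement membranes, had 47.1 ± 2.73 and 49.1 ± 2.51 TPM (SD, n = 4 each) and was not called (log2 fold change 0.06).

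Type VI collagen forms beaded microfilaments that link cells to the surrounding matrix. COL6A2 (ENSG00000142173, chr21:46098112-46132848, plus strand) was expressed at 149, 157, 152 and 153 TPM in the vehicle libraries and at 139, 139, 137 and 146 TPM in the LLY-283 libraries. All LLY-283 values were lower than all vehicle values (log2 fold change -0.12 ± 0.0297, SE; limma adjusted p = 0.0151), and the call was lost under median-of-ratios scaling (-0.08, adjusted p = 0.131) and with the GC and length trend removed together with the replicate block (adjusted p = 0.0530). COL6A1 (ENSG00000142156, chr21:45981770-46005050, plus strand), the neighboring gene on chromosome 21, had 303, 313, 318 and 313 TPM with vehicle and 297, 300.03, 304 and 289.7 TPM with LLY-283. One LLY-283 value, that of replicate 3, lay inside the vehicle range, and the log2 fold change of -0.07 was not called (adjusted p = 0.0977, limma). COL6A3, the third chain of the trimer, was low, at 1.75 ± 0.327 and 1.93 ± 0.441 TPM (SD, n = 4 each), and its interval of -0.31 to 0.58 on the log2 scale leaves its direction undetermined.

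Of the 7 matrix glycoproteins, THBS1 and TGFBI rose and none fell. THBS1 (ENSG00000137801, chr15:39581079-39599466, plus strand) encodes thrombospondin 1, a secreted trimer that binds CD36, CD47 and integrins and can activate latent TGF-beta, and it showed the largest change of the list. It was expressed at 116, 108, 118 and 114 TPM in the vehicle libraries and at 164, 172, 175 and 161 TPM in the LLY-283 libraries. The lowest LLY-283 library, replicate 4, was far above the highest vehicle library, replicate 3. The log2 fold change was 0.56 ± 0.0382 (SE; limma adjusted p = 4.25e-05), a 1.47-fold increase just under the 1.5-fold line. With median-of-ratios scaling it was 0.60 and passed that line, and it was the only gene of the list to do so in any alternative. THBS1 overlaps FSIP1 on the opposite strand, which was at a mean of 1.72 TPM. Its promoter window is shown because the gene changed most; capitals mark the SP1 motif GGGCGG, the TEAD motif GGAATG and the SMAD motif CAGAC, each on either strand.
THBS1 (plus strand, chr15:39580829-39581128): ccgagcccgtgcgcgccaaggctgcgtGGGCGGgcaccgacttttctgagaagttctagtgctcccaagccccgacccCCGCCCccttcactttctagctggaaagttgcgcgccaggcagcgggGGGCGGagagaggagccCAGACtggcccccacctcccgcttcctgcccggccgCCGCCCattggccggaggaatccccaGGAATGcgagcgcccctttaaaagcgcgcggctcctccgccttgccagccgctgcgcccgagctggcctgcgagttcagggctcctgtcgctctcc
The window holds 4 SP1 matches, 1 TEAD match 46 bases before the start and 1 SMAD match 108 bases before it.

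TGFBI (ENSG00000120708, chr5:136028988-136063818, plus strand), a secreted adhesion protein named for its induction by TGF-beta, was expressed at 1414, 1408, 1412 and 1432 TPM with vehicle and at 1534, 1582, 1594 and 1622 TPM with LLY-283. Its groups were far apart relative to the narrow spread of the vehicle libraries (log2 fold change 0.16 ± 0.0248, SE; limma adjusted p = 0.00177). Under quantile normalization its log2 fold change was smaller, 0.09, and still called (adjusted p = 0.0301). SPARC (ENSG00000113140, chr5:151661096-151686975, minus strand), a collagen-binding protein and the most abundant glycoprotein of the list, had 2106, 2279.9, 2373 and 2207 TPM with vehicle and 2218, 2172, 2218 and 2342 TPM with LLY-283. The groups lay inside one another, and the log2 fold change was -0.0018 (95% interval -0.09 to 0.09). TNC, tenascin C, a glycoprotein characteristic of glioma matrix, had 356 ± 8.99 and 350.4 ± 5.31 TPM (SD, n = 4 each), and FN1, fibronectin, the ligand of integrin alpha 5 beta 1, 82.6 ± 6.37 and 76.9 ± 2.703 TPM. Neither was called, with log2 fold changes of -0.02 and -0.10. THBS2, the paralog of THBS1, had 7.95 ± 0.456 and 7.17 ± 0.283 TPM. Its groups did not overlap, but its log2 fold change of -0.15, opposite in sign to that of THBS1, was not called (adjusted p = 0.119, limma). POSTN, periostin, was at 1.97 ± 0.306 and 1.95 ± 0.334 TPM, too low for its direction to be read (95% interval -0.39 to 0.36).

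In the group of crosslinking enzymes, proteases and inhibitors, PLAU was the only one of the 7 tested genes to be called. PLAU (ENSG00000122861, chr10:73909177-73917496, plus strand) encodes urokinase, the protease that converts plasminogen to plasmin at the cell surface. It was expressed at 402, 409, 412 and 400.0 TPM in the vehicle libraries and at 469, 483, 478 and 513 TPM in the LLY-283 libraries. Replicate 4 was the highest LLY-283 library, and all 4 were above the vehicle range (log2 fold change 0.26 ± 0.0310, SE; limma adjusted p = 0.000486). PLAUR, the urokinase receptor, had 136 ± 1.32 TPM with vehicle and 141 ± 2.73 TPM with LLY-283 (SD, n = 4 each). Its groups did not overlap, yet its log2 fold change of 0.06 was called only under median-of-ratios scaling (0.10, adjusted p = 0.0311). RefSeq lists 2 promoter windows for PLAU, shown with the same motifs in capitals because PLAU was the called protease; they differ in the SP1 motif, absent from the first and present 3 times in the second.
PLAU first window (plus strand, chr10:73910360-73910659): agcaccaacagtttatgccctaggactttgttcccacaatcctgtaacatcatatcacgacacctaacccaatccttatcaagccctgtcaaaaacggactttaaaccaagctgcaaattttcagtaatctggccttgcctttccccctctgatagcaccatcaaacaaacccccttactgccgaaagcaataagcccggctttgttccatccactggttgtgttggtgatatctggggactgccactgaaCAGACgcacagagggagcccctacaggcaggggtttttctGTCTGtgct
PLAU second window (plus strand, chr10:73910882-73911181): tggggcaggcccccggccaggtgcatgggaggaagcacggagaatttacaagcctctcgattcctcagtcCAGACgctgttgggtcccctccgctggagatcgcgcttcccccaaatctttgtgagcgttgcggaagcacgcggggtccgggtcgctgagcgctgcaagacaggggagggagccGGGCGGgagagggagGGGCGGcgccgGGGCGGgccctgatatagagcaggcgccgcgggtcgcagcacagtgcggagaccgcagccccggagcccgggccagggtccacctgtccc

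LOXL2 (ENSG00000134013, chr8:23296897-23425328, minus strand), a lysyl oxidase that crosslinks collagen, was the most abundant uncalled gene of this group, at 265, 249, 260.2 and 256 TPM with vehicle and 240.3, 239.7, 241 and 252 TPM with LLY-283. As for COL1A2, 3 LLY-283 libraries lay below the vehicle range and replicate 4 inside it. The log2 fold change was -0.08 with all libraries (adjusted p = 0.0681, limma) and -0.10 without LLY-283 replicate 4 (adjusted p = 0.0160). It was also called lower with all libraries under quantile normalization (-0.08, adjusted p = 0.0215). LOXL2 overlaps ENTPD4 on the same strand, expressed at a mean of 38.0 TPM. LOX, its family member, had 20.6 ± 0.592 and 18.9 ± 0.770 TPM (SD, n = 4 each); its groups did not overlap and its log2 fold change of -0.13 stood just short of the threshold (adjusted p = 0.0561, limma), which it passed without LLY-283 replicate 3 (adjusted p = 0.0486) and with the GC and length trend removed, without or with the replicate block (adjusted p 0.0321 and 0.0487). The gelatinase MMP2 had 128 ± 6.27 and 135 ± 2.54 TPM, its membrane-bound activator MMP14 71.7 ± 2.46 and 68.8 ± 0.290 TPM, and the inhibitor TIMP1 175 ± 5.98 and 184 ± 8.86 TPM. None of these 3 was called with the values as deposited. Their log2 fold changes were 0.08, -0.06 and 0.07, and that of MMP2 was called under median-of-ratios scaling (0.12, adjusted p = 0.0421).

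Neither of the 2 TGF-beta ligands of the list, TGFB1 and TGFB2, was called. TGFB1 (ENSG00000105329, chr19:41301587-41353922, minus strand) was expressed at 64.0, 67.1, 66.8 and 68.0 TPM with vehicle and at 59.2, 63.7, 62.9 and 67.6 TPM with LLY-283, with overlapping groups (log2 fold change -0.07, adjusted p = 0.255, limma). It overlaps HNRNPUL1, at a mean of 203.4 TPM, on the opposite strand. TGFB2 had 22.6 ± 1.01 and 24.4 ± 0.344 TPM (SD, n = 4 each). Its groups did not overlap, and its log2 fold change of 0.11 missed the threshold with the values as deposited (adjusted p = 0.0801, limma) and passed it under median-of-ratios scaling (0.15, adjusted p = 0.0180) and quantile normalization (adjusted p = 0.0190). TGFB3, the other ligand of the family, is a gene of the wider pathway list, named after its values were seen. It had 22.4 ± 0.636 TPM with vehicle and 24.7 ± 1.04 TPM with LLY-283, without overlap, and was called higher (log2 fold change 0.13, limma adjusted p = 0.0443). Its call was kept in 10 of 20 alternatives and lost without any one vehicle library or LLY-283 replicate 1 or 3 (adjusted p 0.0538 to 0.111).

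The integrins and matrix receptors held the largest decrease of the list together with 3 increases. ITGA3 (ENSG00000005884, chr17:50055968-50090481, plus strand) encodes the alpha 3 chain, which pairs with beta 1 to form a laminin receptor. It was expressed at 313, 322, 328 and 316 TPM in the vehicle libraries and at 243, 249, 252 and 237 TPM in the LLY-283 libraries. Every LLY-283 library was far below every vehicle library (log2 fold change -0.38 ± 0.0283, SE; limma adjusted p = 5.02e-05). ITGB1 (ENSG00000150093, chr10:32887273-33005792, minus strand), the shared beta 1 chain, had 204, 187, 203 and 193 TPM with vehicle and 202, 199, 205 and 205 TPM with LLY-283. Its groups overlapped and its log2 fold change of 0.05 was not called (95% interval -0.03 to 0.12). ITGA5, the alpha chain of the fibronectin receptor, had 44.5 ± 1.88 and 47.2 ± 0.691 TPM (SD, n = 4 each) and was called only under median-of-ratios scaling (log2 fold change 0.09 as deposited, 0.13 with scaling, adjusted p = 0.0220).

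ITGB5 (ENSG00000082781, chr3:124761948-124901418, minus strand), the beta chain of the vitronectin receptor alpha V beta 5, was expressed at 105, 97.6, 96.5 and 107 TPM with vehicle and at 116, 119.7, 116 and 132 TPM with LLY-283. The groups did not overlap, with LLY-283 replicate 4 the highest (log2 fold change 0.25 ± 0.0505, SE; limma adjusted p = 0.00644). ITGAV, its alpha chain, had 86.3 ± 7.83 and 87.8 ± 7.496 TPM (SD, n = 4 each), a wide spread, and a log2 fold change of 0.03 (95% interval -0.14 to 0.20). ITGB3, the other beta partner of ITGAV, had 9.35 ± 1.06 and 8.06 ± 0.725 TPM and a log2 fold change of -0.21, which was not called with all libraries (adjusted p = 0.144, limma) but was without vehicle replicate 2, its lowest vehicle library (-0.29, adjusted p = 0.0412).

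Syndecan 4 and CD44, receptors that are not integrins, rose. SDC4 (ENSG00000124145, chr20:45325288-45348424, minus strand), a heparan sulfate proteoglycan of focal adhesions, was expressed at 32.3, 32.1, 31.8 and 31.8 TPM with vehicle and at 35.5, 35.8, 35.0 and 38.2 TPM with LLY-283 (log2 fold change 0.18 ± 0.0365, SE; limma adjusted p = 0.00764). All 4 LLY-283 libraries were higher, and the vehicle libraries agreed within 1 TPM. CD44 (ENSG00000026508, chr11:35138882-35232402, plus strand), the hyaluronan receptor, was expressed at 1531, 1572, 1638 and 1562 TPM with vehicle and at 1732, 1679.6, 1698 and 1689 TPM with LLY-283. The groups were separate by a narrow margin, between vehicle replicate 3 and LLY-283 replicate 2. The log2 fold change of 0.11 (adjusted p = 0.0168, limma) was no longer called without vehicle replicate 1, 2 or 4 or LLY-283 replicate 1 (adjusted p 0.05002 to 0.0564) or under quantile normalization (adjusted p = 0.189). SDC1 had 119 ± 3.45 and 116 ± 7.78 TPM (SD, n = 4 each) and was not called (log2 fold change -0.03).

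Among the cytoskeletal, lectin, S100 and annexin genes, ANXA1 rose slightly, LGALS3 fell slightly, and the most abundant genes were not called. ANXA1 (ENSG00000135046, chr9:73151865-73170393, plus strand), a phospholipid-binding protein with anti-inflammatory activity, was expressed at 777, 768, 756 and 781 TPM with vehicle and at 827, 803, 805 and 855 TPM with LLY-283 (log2 fold change 0.09 ± 0.0274, SE; limma adjusted p = 0.0325). The groups were separate, but the call was kept in only 10 of 20 alternatives and was lost without any one of the 4 vehicle libraries or LLY-283 replicate 1 (adjusted p 0.0604 to 0.0837) and under quantile normalization (0.05, adjusted p = 0.137). LGALS3 (ENSG00000131981, chr14:55124110-55145423, plus strand), the galactoside-binding lectin galectin 3, was expressed at 94.7, 99.3, 97.5 and 95.6 TPM with vehicle and at 89.5, 88.0, 87.7 and 94.6 TPM with LLY-283. The highest LLY-283 library, replicate 4, lay just under the lowest vehicle library. Its log2 fold change of -0.11 (adjusted p = 0.0420, limma) was kept as a call in 8 of 20 alternatives and lost without any one library other than LLY-283 replicate 4 (adjusted p 0.0538 to 0.101) and under median-of-ratios scaling (-0.06, adjusted p = 0.258).

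ANXA2 (ENSG00000182718, chr15:60347134-60402883, minus strand), a membrane-binding annexin and plasminogen receptor, had 5193, 5343, 5221 and 5247 TPM with vehicle and 5235, 5274, 5246 and 5805 TPM with LLY-283. LLY-283 replicates 1 to 3 fell inside the vehicle range and replicate 4 was far above it, and the log2 fold change of 0.04 was not called (adjusted p = 0.505, limma). Its processed copy ANXA2P2 was listed at 46.1 to 59.3 TPM, so reads may be divided between both. VIM, vimentin, the intermediate filament of mesenchymal cells, had 4271, 4319, 4273 and 4341 TPM with vehicle and 4044, 4019, 4030.2 and 4390.2 TPM with LLY-283. Replicates 1 to 3 of LLY-283 were below the vehicle range and replicate 4 above it. The log2 fold change of VIM was -0.06 with all libraries (adjusted p = 0.195, limma) and -0.09 without LLY-283 replicate 4 (adjusted p = 0.00179). With all libraries it was called lower under quantile normalization (-0.10, adjusted p = 0.00633). LGALS1, galectin 1, showed the same arrangement, with 1771 ± 47.6 and 1714 ± 134 TPM (SD, n = 4 each) and a log2 fold change that went from -0.05 (adjusted p = 0.502) to -0.10 (adjusted p = 0.0246, limma) without that library. S100A6, a calcium-binding protein, had 4443 ± 144 and 4417 ± 245 TPM and was not called.

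**Figure D3:**
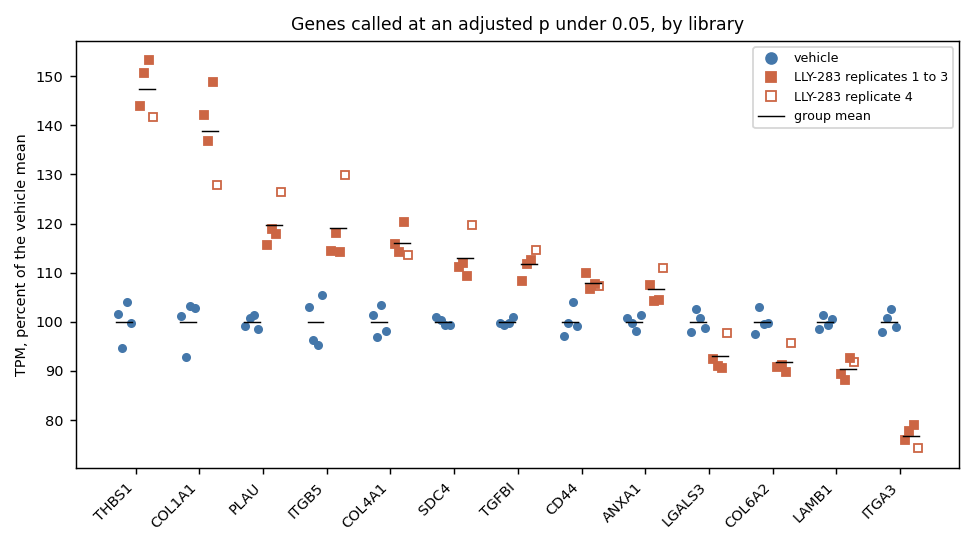
TPM of the 13 called genes in each library as a percentage of the vehicle mean (vertical axis), with vehicle libraries as circles, LLY-283 libraries as squares (replicate 4 open) and group means as bars. In all 13 genes the 2 groups are separate; the mean of THBS1 is 1.47 times and that of ITGA3 0.767 times the vehicle level.

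The position of LLY-283 replicate 4 was examined over the whole list, since that library had the lower mitochondrial share. It was the highest of the 4 LLY-283 libraries for 20 of the 43 genes tested and the lowest for 12. No such count over all genes stands beside these numbers, so they are not read as particular to the list. The summed TPM of the 46 genes was 25968 to 26402 in the vehicle libraries, 25968 to 26058 in LLY-283 replicates 1 to 3 and 27984 in replicate 4. Without replicate 4, 9 genes rose and 8 fell, the added decreases being COL1A2, LOXL2, VIM and LGALS1, while over all genes tested 1508 rose and 2659 fell. With the mitochondrial genes taken out of the total and all 8 libraries kept, an alternative chosen after seeing the data, 9 rose and 7 fell, COL1A2, LOXL2 and VIM being the added decreases, against 1165 and 2649 over all genes. Without replicate 4 the increase of THBS1 had a log2 fold change of 0.58 and that of COL1A1 one of 0.51.

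**Figure D4:**
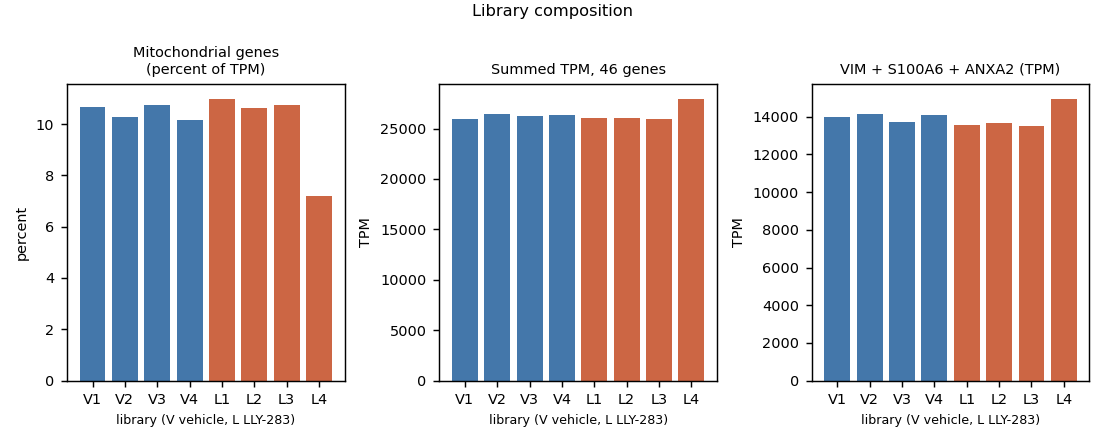
Percentage of TPM in genes of the mitochondrial genome, summed TPM of the 46 genes, and summed TPM of VIM, S100A6 and ANXA2 in the 4 vehicle (V1 to V4) and 4 LLY-283 (L1 to L4) libraries. L4 has the lowest mitochondrial share, 7.19%, and the highest sums, 27984 TPM for the 46 genes.

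The groups did not overlap for 18 of the 43 genes (41.9%), 11 of them higher and 7 lower with LLY-283, against 29.2% of all genes tested (9.63% higher and 19.6% lower). Besides the 13 called genes these were COL5A1, THBS2, LOX, PLAUR and TGFB2. Over the 28 uncalled genes averaging 5 TPM or more, the 95% intervals of the log2 fold change lay between -0.43 (ITGB3) and 0.20 (TGFB2), so that an increase as large as that of THBS1 lay outside all of them.

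To compare genes whose products work together, the ratio of the 2 transcripts was taken within each library for 10 partner pairs. Such a ratio does not change when a library is multiplied by a single factor, though it can change under quantile normalization. The pairs were chosen after the values had been seen, so the ratios are given without a test. COL1A1 relative to COL1A2 went from 0.151 ± 0.00528 with vehicle to 0.221 ± 0.0185 with LLY-283 (SD, n = 4 each), and COL4A1 relative to COL4A2 from 0.489 ± 0.0133 to 0.549 ± 0.0197. In both pairs the ratios of the groups did not overlap. COL5A1 relative to COL5A2 went from 1.55 ± 0.0240 to 1.46 ± 0.0551, also without overlap, whereas COL6A1 relative to COL6A2 overlapped (2.04 ± 0.0395 and 2.12 ± 0.0990). LAMB1 relative to LAMC1 went from 0.895 ± 0.0702 to 0.763 ± 0.0205 without overlap. Among the integrins, ITGA3 relative to ITGB1 went from 1.63 ± 0.0772 to 1.21 ± 0.0392, while ITGA5 relative to ITGB1 was at 0.227 ± 0.0116 and 0.233 ± 0.00156 with overlapping groups. ITGAV relative to ITGB3 went from 9.16 ± 0.312 to 10.8 ± 0.197 without overlap, and ITGAV relative to ITGB5 from 0.853 ± 0.0906 to 0.731 ± 0.10005 with overlap. PLAU relative to PLAUR went from 2.98 ± 0.0419 to 3.44 ± 0.0778 without overlap.

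**Figure D5:**
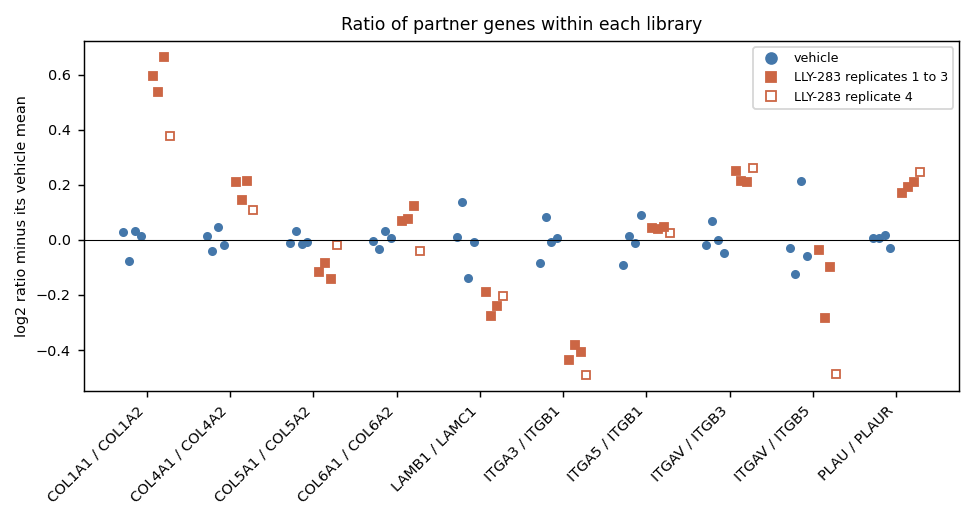
Log2 ratio of 10 partner pairs in each library minus the mean of the vehicle libraries (vertical axis); vehicle libraries are circles and LLY-283 libraries squares, replicate 4 open. COL1A1 / COL1A2 lies highest, 0.54 above the vehicle mean on average, and ITGA3 / ITGB1 lowest, 0.43 below it.

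The wider pathway was followed in 193 further genes of the matrix and its receptors, grouped into 8 lists, of which 146 were tested. Of these 19 rose and 24 fell at an adjusted p under 0.05 (limma), 13.01% and 16.4%, against 8.61% and 17.6% of all genes tested, with a median log2 fold change of -0.01. Under median-of-ratios scaling 27 rose and 13 fell, and under quantile normalization 25 rose and 24 fell. The lower calls numbered 13 without vehicle replicate 1, 3 or 4 and 15 without LLY-283 replicate 1 or 2, and the higher calls 12 without vehicle replicate 4. Of the other collagens, 6 of 16 fell and none rose, with a median log2 fold change of -0.20. COL4A6, a collagen of specialized basement membranes, fell from 19.6 ± 0.378 to 15.8 ± 0.756 TPM (mean ± SD, 4 libraries each), a difference of -0.31 on the log2 scale (limma adjusted p = 0.00129). Of the other matrix glycoproteins and proteoglycans, 5 of 21 fell (23.8%, against 17.6% of all genes) and none rose (against 8.61%). The lowest adjusted p was that of AGRN, the basement membrane proteoglycan agrin (152 ± 0.703 TPM with vehicle, 133 ± 8.18 TPM with LLY-283, -0.19 on the log2 scale, adjusted p = 0.00970). In collagen biosynthesis, 3 of 23 genes rose and 4 fell. BMP1, the protease that removes the C-terminal propeptide of collagen, rose (log2 fold change 0.20, adjusted p = 0.00180), as did its enhancer PCOLCE, from 4.64 ± 0.542 to 7.55 ± 1.58 TPM, a difference of 0.67 on the log2 scale (adjusted p = 0.0112), which was the only one of the 146 genes tested to be called past 1.5-fold and is named after its value was seen. P3H4, a partner of the lysyl hydroxylation machinery, fell from 69.6 ± 2.88 to 52.5 ± 2.83 TPM, a difference of -0.41 on the log2 scale (adjusted p = 0.000396).

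Of the other proteases and inhibitors, 3 of 21 rose and 2 fell (14.3% and 9.52%, against 8.61% and 17.6% of all genes tested). ADAM12 was lower by a small margin (log2 fold change -0.12, limma adjusted p = 0.0298), a call lost without vehicle replicate 1 or 3 or LLY-283 replicate 1 or 2 (adjusted p 0.0512 to 0.0714) and under median-of-ratios scaling (adjusted p = 0.0971). Among the other integrins, receptors and adhesion adaptors, 5 of 27 rose and 3 fell (18.5% and 11.1%, against the same shares of all genes). BCAR1, an adaptor of focal adhesions, rose from 83.4 ± 2.49 to 101 ± 2.75 TPM (mean ± SD, 4 libraries each), a difference of 0.27 on the log2 scale (adjusted p = 0.000505). ITGB4, the beta chain of the laminin receptor alpha 6 beta 4, fell from 546 ± 21.2 to 458 ± 12.8 TPM, a difference of -0.25 on the log2 scale (adjusted p = 0.000833).

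In the TGF-beta pathway, 6 of 17 genes rose and 1 fell (35.3% and 5.88%, against 8.61% and 17.6% of all genes tested). The median log2 fold change was 0.13 in this list and -0.05 over all genes. SMAD6, an inhibitory SMAD, rose from 21.9 ± 0.800 to 28.4 ± 0.376 TPM (mean ± SD, 4 libraries each), a difference of 0.38 on the log2 scale (limma adjusted p = 0.000232), and SKI, a corepressor of SMADs, fell (log2 fold change -0.12, adjusted p = 0.0353). The SKI call was lost under quantile normalization, under median-of-ratios scaling and without vehicle replicate 2, 3 or 4 or LLY-283 replicate 1 or 2 (adjusted p 0.0564 to 0.0881 for the libraries). Of 8 EMT factors and cadherins tested, 2 rose and 1 fell (25.0% and 12.5%, against the same shares of all genes). SNAI2, a zinc finger factor of the epithelial to mesenchymal transition, rose from 12.2 ± 0.351 to 15.3 ± 0.428 TPM, a difference of 0.32 on the log2 scale (adjusted p = 0.000927). PRRX1, a mesenchymal homeobox factor, was lower (log2 fold change -0.14, adjusted p = 0.0351), a call kept in 10 of 20 alternatives and lost without vehicle replicate 1, 3 or 4 or LLY-283 replicate 1, 2 or 4 (adjusted p 0.0542 to 0.0876). Of 13 related annexins, S100 proteins and galectins, none rose and 2 fell (15.4% lower, against 17.6% of all genes tested). The lowest adjusted p was that of ANXA4 (51.3 ± 1.19 TPM with vehicle, 39.0 ± 2.59 TPM with LLY-283, -0.39 on the log2 scale, limma adjusted p = 0.000515).

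Promoter windows were found for 36 of the 46 genes, 45 windows in all, and were searched on both strands for 5 motifs. COL1A1 and ITGA3 were among the genes without a window. The windows of called genes thus came from 8 of the 9 increases and 3 of the 4 decreases. The SP1 motif GGGCGG was present in 30 of these windows (66.7%), against 15786 of all 35116 windows of the same length, in 9 of the 11 windows of called increases and in all 3 windows of called decreases. CAGAC, the SMAD motif, was present in 51.1% against 45.3%, in 3 of the 11 windows of increases and 1 of the 3 of decreases. TATAAA, the TATA box, was in 17.8% against 11.5%, GGAATG, the TEAD motif, in 13.3% against 14.0%, and TGANTCA, the AP-1 motif, in 8.89% against 7.71%. Of the windows of called increases, that of THBS1 held the TEAD motif and none held the AP-1 motif, and the windows of called decreases held neither. A match is a description of the letters in a window and not evidence of binding.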

How the data were processed

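RNAseq libraries from the vehicle and LLY-283 groups of U251 cells, 4 each, were analysed from 1 deposited table of TPM values. Per the study's methods and the submitters' processing notes, the authors trimmed adapters with Cutadapt 1.18, aligned reads to hg38 with STAR, and computed TPM per gene with RSEM and GENCODE 41. The methods and the notes name different STAR and RSEM versions. The deposited TPM values are not counts, so no count test was run and depth is unknown. Groups were taken from the labels.

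From these values, log2(TPM + 0.1) was compared between groups with limma 3.58.1 in R 4.3.3 (eBayes with trend, two-sided) over 14478 genes averaging 1 TPM or more. Adjusted p-values follow Benjamini-Hochberg over all of them, and a gene was called at an adjusted p under 0.05. Fold changes on this scale understate the change of genes near 0. On simulated data with 200 of 14478 genes changed by 1 on the log2 scale, 88% were recovered, with 11 false calls. The log2 fold changes of the list were smaller (-0.38 to 0.56), and recovery at their size was not simulated. Positions, GC content and length were taken from GENCODE 44. The alternatives were 2 other pseudocounts, 2 other filters, 2 scalings, 2 forms of eBayes, removal of the GC and length trend, a replicate block, both together, leaving out each library, and removal of mitochondrial genes. Values per library are given for called genes and for the most abundant uncalled gene of each group, and further values for other genes. In the wider lists, the genes of lowest adjusted p in each direction were named, except 1 that is not reported here. The members and the gene lists were chosen with earlier results of these data known.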

Additional observations from a re-analysis of the deposited data

Results flagged for a closer look

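In 9 of 88 groups of 4 libraries, 1 library lay far from the other 3 (Dixon's test at the 95% level). At this level chance gives about 1 in 20 groups on average. How widely that number varies depends on whether the groups are independent. These groups share the same libraries, and the summed TPM contains VIM and ANXA2, so the number of cases is not compared with chance. Of these 9 cases, 7 concern LLY-283 replicate 4, in which COL1A2 was at 351.55 TPM (others 334 to 336), LOXL2 at 252.39 (others 239.7 to 241), TIMP1 at 197.23 (others 179 to 181), SDC1 at 127.92 (others 111 to 113), VIM at 4390.2 (others 4019 to 4044), ANXA2 at 5804.9 (others 5235 to 5274), and the summed TPM of the 46 genes at 27984 (others 25968 to 26058). In the same library the mitochondrial share was 7.19%, and its part in these values was not tested. PLAUR was at 133.95 TPM in vehicle replicate 1, against 136 to 137 in the other vehicle libraries. S100A6 was at 4226.6 TPM in vehicle replicate 3, against 4512 to 4521 in the others.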

How the results depend on the processing

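Of the 43 tested genes, 9 kept their call in all 20 alternatives, of which 1 was added after seeing the data. Over the 43 genes, 784 values stayed on the same side of the threshold and in the same direction, 30 lost a call, 20 gained one and 24 changed sign. For each value below whose move is given, the cause was not tested. Under median-of-ratios scaling, which shifts the median of all genes by 0.04, 14 of the 46 genes rose, 2 fell, 1 passed 1.5-fold, their median log2 fold change was 0.071 and their summed TPM differed by 1099.7 (273 as deposited); 13 genes of the wider lists fell, and 1927 of all genes rose. Under quantile normalization 7 of the 46 genes fell and 1871 of all genes rose. Without a filter, 14 genes of the wider lists fell (all genes: 930 higher, 2041 lower), and without mitochondrial genes 7 of the 46 fell (all genes: 1165 higher, 2649 lower). Leaving out 1 library gave 7 to 9 increases and 3 to 8 decreases among the 46 genes, a median of -0.0011 to 0.045, a summed difference of -216 to 456 TPM, and 12 to 22 increases and 13 to 29 decreases in the wider lists, against 888 to 1508 and 1889 to 2659 over all genes. Uncalled genes that changed sign were TNC (0.023), SDC1 (0.012), SPARC (0.043), S100A6 (0.035) and POSTN (0.026) under median-of-ratios scaling, POSTN under quantile normalization (0.17), and SPARC (0.0056) and ITGAV (-0.011) with the GC and length trend removed, alone or with the replicate block. On leaving out 1 library the sign changed for COL6A3 (range -0.0069 to 0.21), SPARC (-0.031 to 0.026), POSTN (-0.11 to 0.079), ITGAV (-0.034 to 0.073) and S100A6 (-0.048 to 0.011). Libraries with the same number did not deviate together (r of -0.085 to 0.032 over genes, 0 of 4 best with its own number). With 4 libraries per group this cannot decide whether same-numbered libraries were prepared together, which the labels do not state. With a replicate block 9 of the 46 genes rose and 3 fell, 17 and 22 in the wider lists, and 1095 and 2201 of all genes. With no read counts, the spread between 4 libraries alone limits the precision.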
